A study of Mus musculus with 4 samples.

Results

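KLF1 occupancy was examined at 2 genes of the heme pathway, Alad and Abcb10, in mouse fetal liver. The regions were fixed windows on the mouse build mm9, chr4:62150000-62210000 for Alad and chr8:126450000-126540000 for Abcb10 with its upstream flank. Every peak of the authors' list that started in either window was taken, which gave 2 of the 945 listed peaks, 1 in each window. The genes were chosen by the height of these peaks in the list, which is a count of ChIP reads, so height and enrichment over input are given as a description, with no test. The measurement was chromatin immunoprecipitation followed by sequencing (ChIP-seq), in which an antibody pulls down the DNA attached to its target and the recovered fragments are sequenced and placed on the genome.

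The material was liver of Balb/c fetuses lacking Klf3 (Klf3 -/-) at embryonic stage E14.5, with 4 livers pooled. Both groups carried the Klf3 deletion, and no liver with intact Klf3 was included. The KLF1 ChIP group used a rabbit polyclonal antibody to KLF1, and the input group was DNA of the same kind of tissue without antibody. Runs on SOLiD System 2.0 and on System 3.0 were made for both groups, but the deposited files merge them. Each group was therefore 1 combined library, of 17438921 aligned reads for the ChIP and 47356494 for the input, and no value below has a replicate error. The labels name the cells erythroid, and the ChIP and input reads give no expression level of a marker with which to check that. Intervals of ChIP to input ratios are exact Clopper-Pearson 95% intervals of the ChIP share of reads, turned into a ratio. Those of strand shares are exact intervals of the forward share. Those of read density inside against outside the dense stretch at Alad compare reads of 1 library and take its fitted edges as given. All cover counting error only.

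Heme is the iron-holding group of hemoglobin, and red cell precursors make it in large amounts. ALAD, delta-aminolevulinate dehydratase, joins molecules of aminolevulinic acid into porphobilinogen in the cytosol, an early step of the pathway. ABCB10 is an ATP-binding cassette transporter of the inner mitochondrial membrane that red cell precursors need for normal heme production. KLF1 (EKLF) activates many erythroid genes and contacts DNA through zinc fingers that prefer GC-rich sequences of the CACCC type. KLF3 is a related factor that recognises similar sequences. The Alad gene is known to have alternative first exons, one used broadly and one used in erythroid cells.

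The gene table used here is of a later build, GRCm38, so it was used for names and neighbours only. In it Alad (gene 17025) lies between Hdhd3 and Pole3, and Abcb10 (gene 56199) between Nup133 and Taf5l, counting protein-coding genes. Whether either summit lies in a promoter, an exon or an intron was not determined, because no mm9 annotation was used. The promoter sequences that RefSeq gives for the 2 genes on GRCm38.p6 are shown because they hold the type of sequence KLF1 is known to bind, and not because a summit was placed in them. Each run is the 250 bases before an annotated transcription start, on the reverse strand, 5′ to 3′. They are chr4:62520064-62520313 for the more upstream of 2 Alad entries and chr8:123983123-123983372 for the single Abcb10 entry. Capitals mark matches on either strand to CCNCNCCC (the longer motif) or to CACCC (the shorter one).
Alad: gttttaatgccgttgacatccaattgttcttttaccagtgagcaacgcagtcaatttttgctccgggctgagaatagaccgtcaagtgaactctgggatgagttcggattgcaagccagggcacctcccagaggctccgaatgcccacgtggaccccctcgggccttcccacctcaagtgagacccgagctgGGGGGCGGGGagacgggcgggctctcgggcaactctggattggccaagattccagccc
Abcb10: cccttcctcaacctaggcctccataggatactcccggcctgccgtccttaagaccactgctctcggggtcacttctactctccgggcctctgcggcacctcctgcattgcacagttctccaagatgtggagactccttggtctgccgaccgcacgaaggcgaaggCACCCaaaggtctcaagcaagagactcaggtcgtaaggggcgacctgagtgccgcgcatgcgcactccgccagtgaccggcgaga

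The Alad run held overlapping matches to the longer motif on the other strand, beginning 58 and 56 bases before the start, and no match to the shorter one. The second Alad entry, whose start lies downstream, held the same bases and further matches to the longer motif beginning 37 and 35 bases before its own start. It also held the shorter motif on the other strand, 47 bases before that start. The Abcb10 run held the shorter motif, beginning 85 bases before the start, and not the longer one. Such matches were common, since 45.9% of all 32851 promoter entries held the longer motif in the same 250 bases and 52% held the shorter one. The motifs can overlap, so these shares count some promoters under both.

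Neither gene's entries held AGATAA, a sequence of the type bound by GATA factors, which was in 9.99% of all entries. Nor did they hold the E-box CACCTG, a type of sequence bound by complexes of the erythroid regulator TAL1, which was in 17.2%. Both strands were searched for each.

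Promoter entries were read for 11 genes of the heme pathway, 14 entries in all. The genes were Alas1, Alas2, Alad, Uros, Urod, Cpox, Ppox, Slc25a38, Abcb10, Abcb6 and Tmem14c. The longer motif was in 9 of the 14 entries, of 7 genes, and the shorter one in 9 entries, of 8 genes. Over all promoter entries the shares were 45.9% and 52%. Alas2, which encodes the erythroid form of the first enzyme of the pathway, held both. Its entry was the only one of the 14 with the GATA-type sequence, which 9.99% of all promoter entries held. With 14 entries these counts were not tested against the shares. Occupancy at these other genes was not analysed here, since they could not be placed on mm9.

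At Alad the listed summit on chromosome 4 ran from 62177796 to 62177808, and 35 ChIP reads covered its start once each read was extended from its 5′ end to about the fragment length. This count is the height in the authors' deposited list, where it ranked 8 of 945. The input library had 10 reads over the same position, which is 3.68 reads at ChIP depth. The ratio of ChIP to input was 9.50 (95% interval 4.61 to 21.5). The ChIP library was therefore high over this summit, and the input library was high there as well, with 10 or more reads at only 2 of the 945 listed summits, Alad included.

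At Abcb10 the summit on chromosome 8 ran from 126512748 to 126512749, with a height of 31, ranked 18 of 945. A single input read covered it, or 0.368 reads at ChIP depth, and the ratio was 84.2 (14.0 to 3431). With so few input reads the ratio is poorly fixed. It was 43.4 with 1 read added to each count, and 35.4 when the input height was taken from the mean density 1 to 10 kb away, an alternative chosen after seeing the data. At Alad the same settings gave 8.89 and 12.4. With 1 read added, both summits were past 5-fold, as were 98.2% of all listed peaks, so passing that limit does not set the 2 genes apart from the list. The intervals of the 2 ratios overlapped, between 14.0 and 21.5, and the difference between the genes was not tested.

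The order of the genes depended on the measure. By height Alad stood above Abcb10. By the ratio with 1 read added, Abcb10 ranked 12 of 945 and Alad 529. Among the 105 listed peaks of height 20 or more, Abcb10 ranked 7 by that ratio and Alad 100, against a median of 17.0 for those peaks. Against the input density 1 to 10 kb away, Abcb10 ranked 15 of 945 and Alad 458, and among the peaks of height 20 or more the Alad ratio of 12.4 was the lowest.

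**Figure D1:**
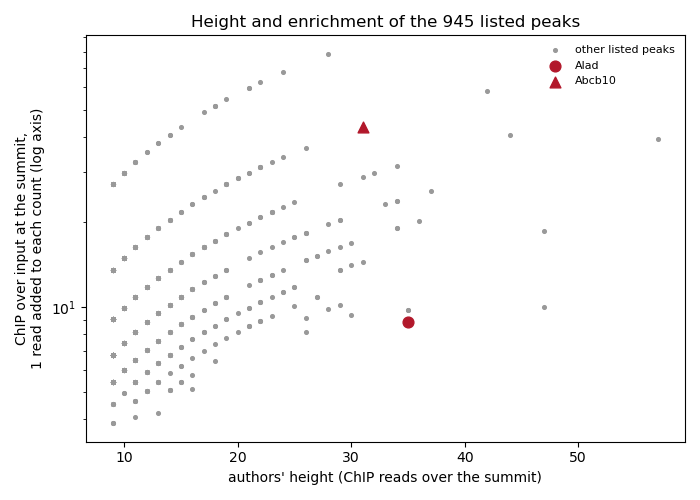
Height in the authors' list (horizontal axis, ChIP reads over the summit) against the ratio of ChIP to input at the summit with 1 read added to each count (vertical log axis) for the 945 listed peaks. Alad (circle, height 35, ratio 8.89) sits near the lower edge at its height, and Abcb10 (triangle, height 31, ratio 43.4) near the upper edge.

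Peaks of equal height were set beside the 2 genes. The list held 3 peaks of height 35, Alad included. Those on chromosome 3 at 103708832 and on chromosome 11 at 32151066 each had 9 input reads and a ratio of 10.6 (4.98 to 25.0), close to Alad at the summit itself. Around them, however, the input held 19.1 and 30.9 reads per kb at 1 to 10 kb, against 75.6 at Alad. Of the 3 peaks of height 31, that on chromosome 4 at 34497718 had 2 input reads and was enriched 42.1-fold (10.7 to 363). The peak on chromosome 17 at 26079773 had 5 input reads and was enriched 16.8-fold (6.49 to 55.5). Abcb10, with its single input read, had the highest ratio of these 3, and the 3 intervals overlapped.

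The ChIP signal at Alad was broad. The stretch around its summit at or above 17.5 reads, the midpoint between 0 and the summit height, reached from 174 bp below to 167 bp above the listed start, a width of 342 bp. The same stretch at Abcb10, at or above 15.5 reads, reached from 84 bp below to 72 bp above, a width of 157 bp. The median width was 128 bp over all listed peaks and 148 bp over the 105 peaks of height 20 or more. Alad was the widest of those 105 and ranked 5 of all 945, while Abcb10 ranked 43 of the 105 and 256 of all. The Alad width is sensitive to counting error, since the height fell to 18 at 100 bp below, just above the limit of 17.5. At a height of 9, the lowest in the authors' list, the Alad stretch was 508 bp long and the Abcb10 stretch 290 bp.

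Within its broad stretch Alad showed several maxima. ChIP height was 25 at 130 bp below the listed start, fell to 18 at 100 bp below, reached 35 at 6 and at 37 bp above, and was 32 at 81 bp above and 21 at 199 bp above. The low points between the later ones were 26 reads at 52 bp and 17 reads at 168 bp above. Input over the same maxima was 7 to 13 reads. At Abcb10 the ChIP height had a single top of 31 reads, from the listed start to 11 bp above with a dip to 30 between. Steps of a few reads are within counting error, so whether the Alad maxima are separate sites was not determined.

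**Figure D2:**
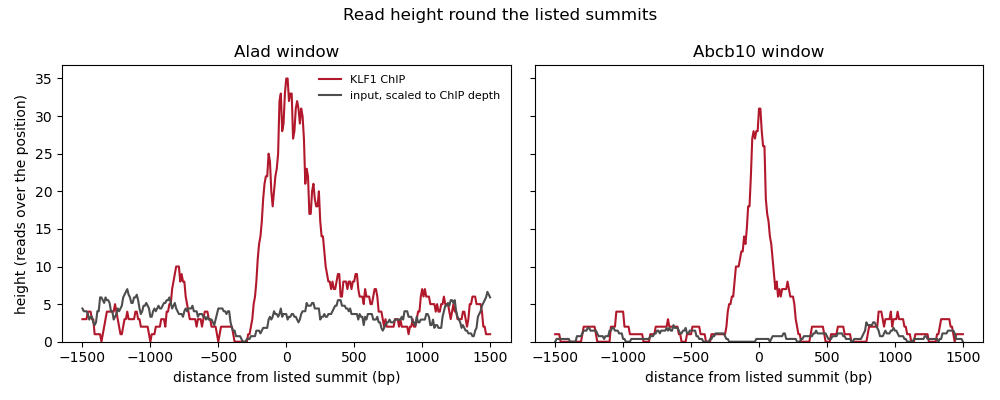
Reads covering each position (vertical axis, reads) by distance from the listed summit (horizontal axis, bp), for ChIP and for input scaled to ChIP depth. The Alad signal (left, top 35) is wider than the Abcb10 signal (right, top 31). The grey input line lies higher at Alad over most positions, but falls to 0 at 300 bp below the Alad summit.

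Reads beside the summits gave a second view. Reads whose 5′ ends lay more than 100 and up to 300 bp away cannot cover the summit position, though they come from the same libraries that placed it. At Alad these flanks held 64 ChIP and 28 input reads, a ratio of 6.21 (3.92 to 10.1), ranked 61 among listed peaks. At Abcb10 they held 26 and 5 reads, a ratio of 14.1 (5.34 to 47.1), ranked 9. Flank ratios of 2 or more were found at 51.1% of the listed peaks with input reads in the flanks, and the median over the list was 2.04. The Alad ratio was 3.15 with flanks up to 500 bp, and the Abcb10 ratio was 24.4 with flanks up to 200 bp and 7.65 up to 500 bp.

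Both sides of each summit were enriched. Below the Alad summit the flank ratio was 6.34 (2.78 to 15.7), from 9 input reads, and above it 6.15 (3.51 to 11.2), from 19. The input height there fell to 0 at 300 bp below the summit. At Abcb10 the flank ratio was 9.96 (2.63 to 55.6) below, from 3 input reads, and 20.4 (4.74 to 184) above, from 2. Farther out, with both sides counted together, no excess of ChIP was detectable at this depth. The sides were not alike at Alad, where ChIP height stayed at 6 or more from 236 bp below the listed start to 560 bp above. Ratios of the separate sides were not computed beyond 300 bp. At 301 to 500 bp the ratio was 1.06 (0.555 to 1.93) at Alad and 2.26 (0.546 to 8.90) at Abcb10, and both intervals included 1, that at Abcb10 resting on 5 ChIP and 6 input reads and so also allowing an excess. From 501 to 1000 bp it was 1.18 (0.800 to 1.73) and 1.45 (0.722 to 2.82). At 5001 to 20000 bp it was 0.968 (0.884 to 1.06) and 0.996 (0.866 to 1.14). Between 2001 and 5000 bp the Alad ratio was below 1, at 0.772 (0.634 to 0.935), from 137 ChIP and 482 input reads.

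**Figure D3:**
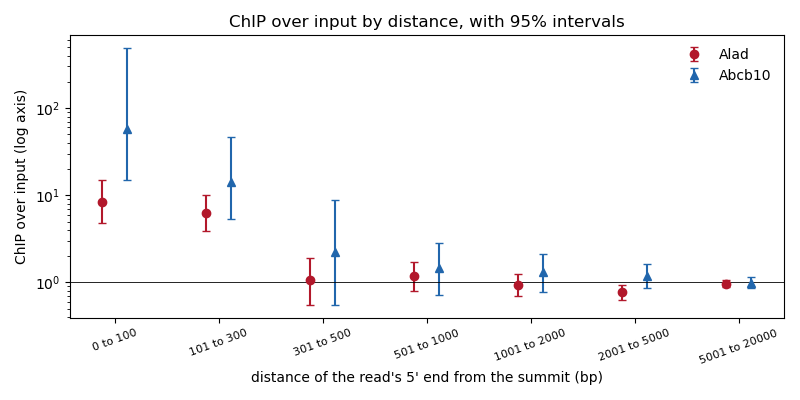
Ratio of ChIP to input reads (vertical log axis) in bands of distance from the summit (horizontal axis, bp), with exact 95% intervals, for Alad and Abcb10. The ratio is raised up to 300 bp from both summits, and from 301 bp outwards every interval includes 1 except Alad at 2001 to 5000 bp.

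Strands were read separately, since fragments centred on a bound site give forward reads mainly below it and reverse reads mainly above it. Within 300 bp below the Alad summit, 34 of 52 ChIP reads were on the forward strand (65.4%, 50.9% to 78.0%), and above it 20 of 66 were (30.3%, 19.6% to 42.9%). At Abcb10 the shares were 20 of 34 below (58.8%, 40.7% to 75.4%) and 4 of 34 above (11.8%, 3.30% to 27.5%). The forward and reverse reads thus leaned to opposite sides at both genes, though the Abcb10 interval below the summit included 50%. In the Alad input, 11 of 19 reads were forward below (57.9%, 33.5% to 79.7%) and 14 of 27 above (51.9%, 31.9% to 71.3%). The Abcb10 input held only 7 reads in this region, too few to compare.

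The distance between strands differed. The median 5′ end of forward ChIP reads lay 59 bp below the Alad summit and that of reverse reads 115 bp above, 174 bp apart. At Abcb10 the medians lay 55 bp below and 36.5 bp above, 91.5 bp apart. Per the labels the libraries held inserts of 80 to 130 bp. The Abcb10 gap lay inside that range and the Alad gap above it.

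**Figure D4:**
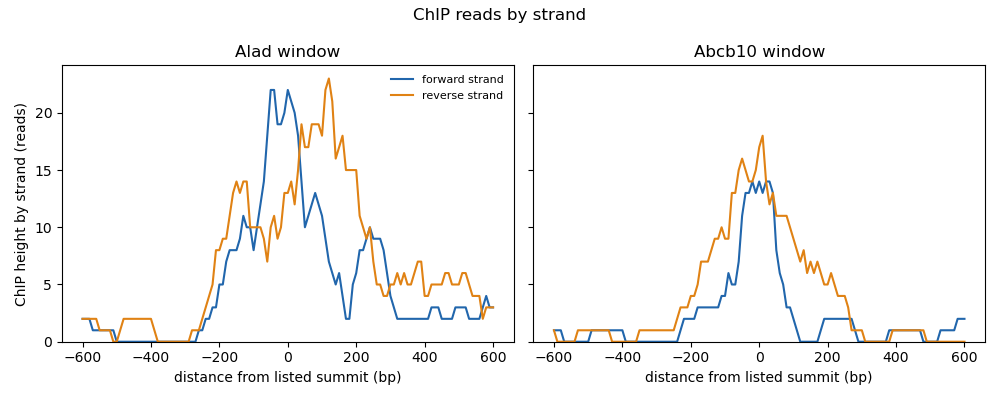
ChIP height (vertical axis, reads) by distance from the summit (horizontal axis, bp), drawn separately for forward and reverse reads. At Alad both strands show more than 1 maximum and reverse reads peak to the right of forward reads, while at Abcb10 each strand has its top near the summit.

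The 2 loci also differed in the density of reads around the peak. The Alad window held 3398 input reads in 60 kb, or 56.6 per kb, which was 3.00 times the autosome mean of 18.9 per kb. The Abcb10 window held 2329 in 90 kb, or 25.9 per kb and 1.37 times that mean. That mean was taken from the first to the last read of each autosome, stretches without reads included. Listed peaks lay in denser input, with a median of 25.8 reads per kb at 1 to 10 kb from the summit. By this density Alad, at 75.6, ranked 2 of the 945 listed peaks, and Abcb10, at 23.6, ranked 646.

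The input reads at Alad were not dense throughout the window. The best division of the window into a dense stretch and the remainder, found after seeing the data, placed the dense stretch at chr4:62156000-62180749, 24.8 kb long, with the summit 2.95 kb from its upper edge. Leaving out 1 kb either side of the summit, the input held 94.9 reads per kb inside and 30.0 outside, a ratio of 3.16 (2.93 to 3.40). At the lower edge the input went from 44 reads in one 1 kb step to 102 in the next. Around the upper edge it was uneven, with 87, 39, 45, 65, 54 and 29 input reads in successive 1 kb steps, the first of them centred 2.70 kb above the summit. Input forward reads made up 50.1% of the dense stretch.

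The ChIP library showed the same stretch away from the summit, with 29.7 reads per kb inside and 10.9 outside, a ratio of 2.72 (2.40 to 3.09). The ChIP to input ratio inside was 0.851 (0.779 to 0.928). Of 97580 autosomal windows of 24.75 kb, 10 had an input density as high as the dense stretch at Alad, and the median window had 19.2 reads per kb. The edges of the Alad stretch were fitted to the reads and those of the windows were not. This favours a higher density at Alad, so the count of 10 is a rough guide. At Abcb10 the same division found only a 1 kb stretch, from 126485000 to 126485999 on chromosome 8, which did not hold the summit.

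Inbred mouse strains are known to differ in ALAD activity and in the number of Alad copies they carry, and Lv, the name of that variable locus, is listed as a synonym of the gene. The mm9 sequence is of strain C57BL/6J, while these fetuses were Balb/c. Whether extra copies, repeated sequence or alignment produced the dense stretch was not tested. At the mean density of the stretch, 9.58 input reads would cover a position, close to the 10 at the summit, and 3.00 ChIP reads would, against the 35 seen. The authors' height is not corrected for this density. With ChIP density at 1 to 10 kb taken off, the heights were 32.5 at Alad and 30.0 at Abcb10. Divided instead by the input density there relative to the autosome mean, the heights were 8.75 at Alad and 24.9 at Abcb10, the reverse order. Which form of correction applies was not tested.

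**Figure D5:**
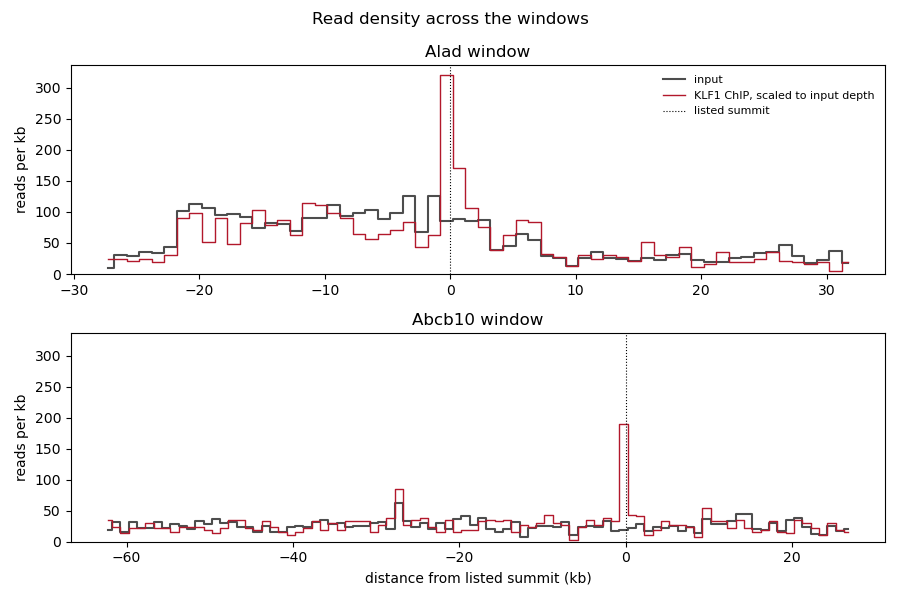
Reads per kb (vertical axis) in 1 kb steps by distance from the listed summit (horizontal axis, kb) for input and for ChIP scaled to input depth. In the Alad window (top) both libraries run high from about 22 kb below the summit to a few kb above it, and in the Abcb10 window (bottom) the highest ChIP step is at the summit, with a lower one 27.2 kb below it where the input is also at its highest, 63 reads.

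Few listed peaks shared the high input density. At 1 to 10 kb, 9 of 945 had an input density of 2 or more times the autosome mean, Alad among them. Of these 9, only Alad and the peak on chromosome 8 at 19984277 had a height above 16. The latter, of height 47, had 12 input reads, a summit ratio of 10.6 (5.56 to 22.0) and a flank ratio of 4.60 (2.21 to 9.93). The Alad flank ratio of 6.21 was the highest of the 9. The peak with the highest input density, on chromosome 1 at 90207353 with 77.5 reads per kb, had a height of 9 and a flank ratio of 0.388 (0.135 to 0.917).

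Over whole windows ChIP and input were close. The scaled ratio was 0.989 (0.926 to 1.06) at Alad and 1.09 (1.01 to 1.18) at Abcb10. Reads within 1 kb of the summit made up 14.2% of the ChIP reads and 5.33% of the input reads of the Alad window, and 9.41% and 1.76% at Abcb10. Without them the ratios were 0.896 (0.835 to 0.960) and 1.01 (0.928 to 1.09). In steps of 1 kb with at least 10 input reads, 1 of 60 at Alad and 1 of 89 at Abcb10 reached 3-fold, against 0.203% of such steps over the autosomes and chromosome X. Each was the step with the summit, at 3.77-fold for Alad (118 ChIP and 85 input reads) and with 70 ChIP and 19 input reads for Abcb10. At 5-fold the Alad step no longer passed and the Abcb10 step did.

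Lower signal outside the list was also read. Stretches with 6 or more ChIP reads over a position, over 200 bp from a listed peak, numbered 30 in the Alad window, or 50 per 100 kb, and 4 at Abcb10, or 4.44 per 100 kb. Over the autosomes and chromosome X there were 1.48 per 100 kb. Of the 30 at Alad, 27 had their top in the dense stretch. The number was 19 when stretches within 500 bp were merged (1.45 per 100 kb over the autosomes and chromosome X), and at Abcb10 it was 1 at a height of 7 or more (0.357 per 100 kb). These counts are of ChIP height alone. Over the tops of the stretches the ratio to input had a median of 2.06 at Alad and 3.39 at Abcb10. Each top was the position of highest ChIP in a stretch chosen on ChIP height, which by itself raises the ratio there. These ratios, and those of single stretches given next with their intervals, are not corrected for that choice.

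The highest unlisted stretch at Alad, with its top at 62163425, had 15 ChIP and 15 input reads, a ratio of 2.72 (1.24 to 5.96). That at Abcb10, at 126485393 and 27.4 kb below the listed summit, had 14 and 17, a ratio of 2.24 (1.02 to 4.82). Both were higher in the ChIP than many listed peaks, whose median height was 11, but below 5-fold over input. At Alad 2 stretches reached 5-fold, at tops of 62174979 with 6 ChIP and 3 input reads and 62179668 with 8 and 2. At Abcb10 it was 1, at 126488018 with 6 and 3. With so few reads the ratios are poorly fixed, at 5.43 (1.16 to 33.6) for 6 against 3 reads and 10.9 (2.17 to 105) for 8 against 2. These 3 stretches were chosen after their values were seen.

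Each listed peak was the only one in its window. The nearest listed peaks on chromosome 4 were 5567 kb below Alad, at 56610451 with a height of 9, and 14408 kb above it, at 76585363 with a height of 10. Below Abcb10 the nearest was 1268 kb away, at 125244550 with a height of 10, and no listed peak followed on chromosome 8. The median distance to the nearest listed peak over the list was 337 kb. Widening each window by 50 kb on both sides added no listed peak.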

How the data were processed

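KLF1 ChIP and input DNA were sequenced from pooled fetal livers. The deposited lists place each aligned read by chromosome, 5′ position and strand on mm9, a build named in the submitters' processing notes, and per the labels they combine both sequencing systems. The aligner and peak caller are not given in the sources used here. The fourth column of the authors' deposited peak list is a signal, the pileup height of ChIP reads. It equalled the reads over the listed start, each extended to 101 positions, at 945 of 945 peaks. No reads in either library shared position and strand. Printed positions are the deposited ones, of which no source used here states if counting starts at 0 or 1.

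Ratios were scaled to all aligned reads, with no read added unless stated. Reads were counted by 5′ end in flanks, steps and windows. Ranks give 1 to the highest value, with ties at the better rank. The dense stretch maximised a Poisson likelihood over steps of 250 bp. Counting was tested on simulated data. The members, lists and rules were chosen with earlier results of these data known. All listed peaks of both windows, the highest unlisted stretch of each and the nearest listed peaks outside were named by rule, and other sites were chosen after their values were seen. No test was run, since each group was 1 combined library and the members had been chosen on these values. The scripts ran under Python 3.11.15, with SciPy 1.17.1, NumPy 2.4.6, matplotlib 3.10.9 and pandas 2.3.3. Some genes of the pathway list are not reported here.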

Additional observations from a re-analysis of the deposited data

How the results depend on the processing

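Of 39 alternatives over 12 results, 30 left the value inside its 95% interval or the count within 1.5 times, and 9 moved it. Alternatives that moved a value were flanks up to 500 bp at Alad (3.15), and leaving out 1 kb either side of the summit, with window ratios of 0.896 at Alad and 1.01 at Abcb10. At a fold of 2 the number of 1 kb steps was 3 of 60 at Alad and 2 of 89 at Abcb10, near the share over all steps (3.94%). At a fold of 5 it was 0 at Alad (all steps 0.00455%), and with 5 or more input reads 2 of 90 at Abcb10 (all steps 1.24%). Unlisted stretches numbered 19 at Alad when merged within 500 bp and 1 at Abcb10 at height 7, where the autosomes and chromosome X held 1.45 and 0.357 per 100 kb. Merging and stricter limits leave fewer by construction, and looser limits leave as many or more. The band of 301 to 500 bp added to the Alad flanks held 16 ChIP and 41 input reads. The reads left out near the summits were 14.2% of ChIP and 5.33% of input reads at Alad, and 9.41% and 1.76% at Abcb10. Leaving out reads richer in ChIP lowers a window ratio by construction. Other causes were not tested. Extending reads to 80 or 130 positions, or further, gave summit ratios of 8.15 to 10.1 at Alad and 67.9 to 103 at Abcb10, all inside wide intervals. The Abcb10 summit ratio rests on a single input read. Local input (2 results) and 500 bp steps for the dense stretch (3.14) were chosen after seeing the data. No paired analysis was possible because the deposited files merge the sequencing runs of each group, and for the same reason leaving out a run was not run.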
